A study of Drosophila melanogaster with 24 samples.

Results

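The most abundant noncoding RNA genes known only by a CR number were followed in mesodermal cells sorted from Drosophila melanogaster embryos of 6 genotypes. A CR number is the FlyBase identifier of a gene that is not annotated to code for a protein. Of 17476 genes in the count table, 2644 had a CR number as their symbol with no rRNA in the name. The members described here are the 200 of these chosen by the highest mean level over all 24 samples. Levels are in CPM, a gene's counts per 1000000 counts of the sample. Because level chose the members, their levels are a description. The lowest members were CR14578 at 1.93 CPM, CR43252 at 1.90 CPM and CR46084 at 1.90 CPM. Just outside stood CR43889 at 1.87 CPM, CR45808 at 1.87 CPM and CR32745 at 1.86 CPM.

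The study asked which mesodermal genes depend on jumu, from jumu loss-of-function and wild-type cells. jumu and CHES-1-like are a pair of forkhead (Fox) transcription factors needed for specification and division of cardiac progenitors. The other genotypes belong to the same series, and the study's paper does not report their profiles. Cells carrying a green fluorescent protein (GFP) were sorted from embryos at stages 11 to 12, grown at 25 °C, and their total RNA was sequenced in 4 samples per genotype. All 6 genotypes carried twi-GAL4, which drives expression throughout the mesoderm, and the GFP reporter UAS-2EGFP. jumu loss-of-function (LOF) embryos carried the deficiency Df(3R)Exel6157 on both homologs, one recombined with twi-GAL4 and the other with UAS-2EGFP. CHES-1-like LOF embryos carried the deletion allele Df(1)CHES-1-like1 with twi-GAL4 UAS-2EGFP/+. Double LOF embryos combined both deletions. In the overexpression (OE) embryos the chromosome with twi-GAL4 and UAS-2EGFP stood over UAS-jumu in one genotype and over UAS-CHES-1-like in the other, and wild-type embryos were twi-GAL4 UAS-2EGFP/+. Each genotype comes from its own crosses, so that an effect of a Fox gene and an effect of the chromosomes carried cannot be told apart.

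Long noncoding RNAs are transcribed like messenger RNAs but are not translated. Some are precursors that are cut to release microRNAs (miRNAs) or small nucleolar RNAs (snoRNAs). Others run antisense to a protein-coding gene or inside its introns. In fly embryos many appear in restricted cell types, and the best known hosts in muscle and neurons carry the miRNAs mir-1 and mir-124. Pseudogenes, which are decayed copies of coding genes, also carry CR numbers.

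Total counts per sample were between 15197022 and 72519855. The targeted genes checked the labels. CHES-1-like averaged 1.14 CPM in CHES-1-like LOF and 1.20 CPM in double LOF samples, against 156 CPM in wild-type samples. jumu averaged 29.9 CPM in jumu LOF and 21.9 CPM in double LOF samples, against 122 CPM in wild-type samples, so that counts were still assigned to jumu in the samples labelled as lacking it. In the OE samples jumu averaged 676 CPM and CHES-1-like averaged 1532 CPM. Here and below, levels are CPM scaled by edgeR's TMM factors. The 12 mesoderm markers summed to between 1221 and 1835 CPM over all samples, and none was at 0. The 7 hemocyte markers summed to 916 to 949 CPM in jumu LOF, 1134 to 1188 in CHES-1-like LOF, 699 to 749 in double LOF, 748 to 816 in jumu OE, 534 to 600 in CHES-1-like OE and 916 to 962 in wild-type samples. Over the members, 4 samples lay farthest from their own group, namely double LOF replicate 2, jumu OE replicate 1, CHES-1-like OE replicate 1 and jumu OE replicate 3, with root mean square deviations of 0.63, 0.517, 0.466 and 0.438 on the log2 scale. The other 20 samples lay between 0.138 and 0.325. In sorted bulk samples, fewer cells of a type and less RNA per cell cannot be told apart.

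The annotation of the same genome assembly (BDGP6.54, from Ensembl) held 170 of the 200 members, 168 by gene identifier and 2 by CR number. Of these, 135 are noncoding RNA genes and 35 are pseudogenes, so the description as noncoding RNA covers both kinds. The other 30 members had no entry there. By position, 70 members overlapped another gene on the opposite strand only, 27 on the same strand only and 9 on both, and 64 overlapped none. Arm 3L held 42 members, 2L and 3R held 31 each, X held 30, 2R held 28 and the fourth chromosome held 8. Of the 170, 20 contain an annotated miRNA or snoRNA. The counting was not stated to use strand, so reads of a member and of a gene that overlaps it cannot be told apart.

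The counts were concentrated in the members with no entry. The 2 most abundant members, CR41583 and CR40668, held 55.1% of the summed mean CPM of all 200. Ranks 1 to 18 held 98.5% of it and all lacked an entry. Members with no entry ranged from 2.13 to 70810 CPM, with a median of 2167 CPM. The highest annotated members were CR42862 at 669 CPM, CR40469 at 238 CPM and CR43432 at 131 CPM. CR42862 overlaps exons of CG33229 on the same strand, and CR43432 is now called lncRNA:marge. Per kilobase of exon, CR40469, a short gene of 214 bases on X, was higher at 1111 CPM per kb, against 122 CPM per kb for CR42862. When the CR genes were ranked in each genotype alone, 149 members stayed in the top 200 of all 6 genotypes. The others stood high in some genotypes only, and the choice by overall mean favours genes that are high in at least 1 genotype. CR45226 was in the top 200 of jumu OE alone, at rank 63 there.

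The 30 members with no entry had the largest shift in double LOF, where 1 rose and 22 fell against wild-type, beside 11.9% of all genes called higher and 12.8% called lower there. In jumu LOF 7 rose and 0 fell, beside 9.82% and 9.54% of all genes, and in CHES-1-like LOF 19 rose and 4 fell, beside 6.24% and 9.18% of all genes. They took 26.2% ± 1.18 of all counts in jumu LOF, 29.4% ± 2.18 in CHES-1-like LOF, 11.4% ± 0.212 in double LOF, 25.5% ± 6.33 in jumu OE, 25.4% ± 3.83 in CHES-1-like OE and 23.6% ± 1.30 in wild-type samples (SD, n = 4 each). The 4 double LOF samples lay between 11.3% and 11.7%, below each of the other 20 samples, which lay at 18.9% or above. The 170 annotated members together took 0.237% in jumu LOF, 0.171% in CHES-1-like LOF, 0.307% in double LOF, 0.271% in jumu OE, 0.256% in CHES-1-like OE and 0.278% in wild-type samples. The 138 rows named as rRNA, which are no members, took 23.8% in jumu LOF, 30.8% in CHES-1-like LOF, 19.0% in double LOF, 20.1% in jumu OE, 22.2% in CHES-1-like OE and 21.6% in wild-type samples. Their part in the result was not tested. The plot of shares of all counts shows these values by sample.

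**Figure D1:**
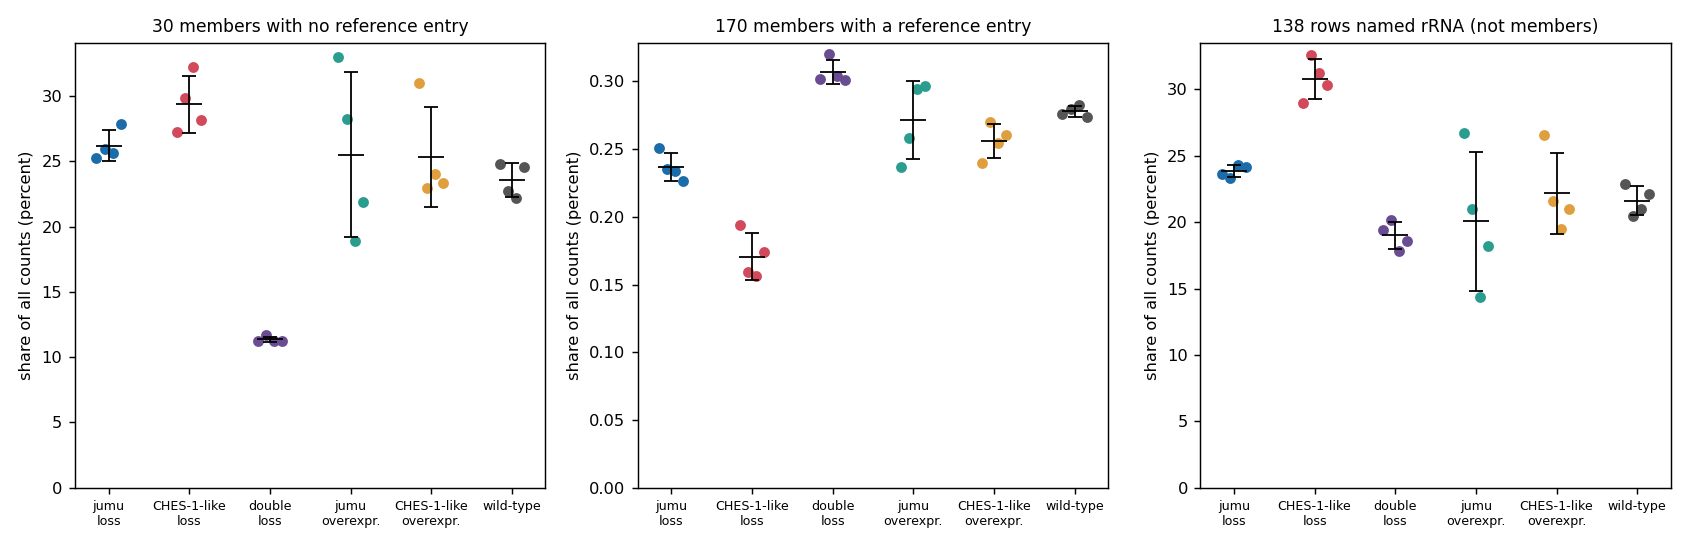
Share of all counts (percent, y axis) in 30 members with no annotation entry, in the 170 members with an entry and in 138 rRNA-named rows, by genotype (x axis); points are samples and black bars the mean ± SD of 4. The 4 double LOF samples sit between 11.3% and 11.7% in the first panel, below all others.

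CR41583, the most abundant member, stood at 119438, 142571, 147575 and 123379 CPM in CHES-1-like LOF and at 29711, 32683, 29102 and 30601 CPM in double LOF samples, against 71076, 55658, 54590 and 71207 CPM in wild-type samples. Neither range overlapped that of wild-type. It rose in CHES-1-like LOF (log2 fold change 1.10 ± 0.10 SE) and fell in double LOF (−1.04 ± 0.13). In jumu OE its samples spread from 37971 to 141041 CPM, across the wild-type range. CR40502 held 66.8, 93.7, 75.4 and 84.1 CPM in double LOF, against 1639, 1252, 958 and 1634 CPM in wild-type samples, a log2 fold change of −4.09 ± 0.19. In jumu LOF it stood between 1069 and 1899 CPM, overlapping wild-type. CR41607 rose in CHES-1-like LOF (1.69 ± 0.10), with 2474, 2512, 2983 and 2273 CPM, against 918, 773, 627 and 898 CPM in wild-type samples, and fell in double LOF (−2.39 ± 0.19) to between 103 and 182 CPM. Of ranks 1 to 18, 5 rose and 0 fell in jumu LOF, 16 rose and 0 fell in CHES-1-like LOF, and 0 rose and 17 fell in double LOF, each against wild-type. Of all genes, 9.82% rose and 9.54% fell in jumu LOF, 6.24% and 9.18% in CHES-1-like LOF, and 11.9% and 12.8% in double LOF. With counts scaled by library totals instead, 0 rose and 1 fell in jumu LOF, 10 rose and 0 fell in CHES-1-like LOF, and 0 rose and 17 fell in double LOF. Among all 12233 genes tested, 919 then rose and 2014 fell in jumu LOF. In CHES-1-like LOF 266 rose and 6269 fell, and in double LOF 3678 rose and 825 fell. In jumu OE 0 of the 18 were called either way by edgeR, 0 by DESeq2 and 0 at an unadjusted p under 0.05, and 4 rose once jumu OE replicate 3 was left out. Of all genes, 15.7% were called in jumu OE. In CHES-1-like OE 2 of the 18 rose, beside 16.7% of all genes, and 0 without CHES-1-like OE replicate 1. CR41619, next in level after the 2 most abundant, stood at 2451, 1008, 3934 and 4071 CPM in double LOF, against 17465, 17992, 15133 and 19346 CPM in wild-type samples (−2.6 ± 0.35), and CR41620 also fell there (−3.0 ± 0.38). CR41621 (1.42 ± 0.10) and CR40621 (1.30 ± 0.15) rose in CHES-1-like LOF. CR41621 was not called in double LOF (−0.25 ± 0.21). The files give these genes a symbol and an identifier only.

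The test of each genotype against wild-type used edgeR's quasi-likelihood F test with Benjamini-Hochberg adjustment over all genes of the table. A gene was called at an adjusted p under 0.1 and a log2 fold change beyond 0.5 in either direction, after the 30% of genes with the lowest mean level had been set aside. In double LOF, 100 of 199 members tested were called (50.3%), 17 higher and 83 lower, against 24.7% of all genes (11.9% higher and 12.8% lower). The members' median log2 fold change was −0.32 and that of all genes tested 0.02. In CHES-1-like LOF, 78 of 198 were called (39.4%), 23 higher and 55 lower, against 15.4% of all genes (6.24% higher and 9.18% lower), with medians of −0.15 for the members and −0.01 for all genes. In jumu LOF, 54 of 199 were called (27.1%), 15 higher and 39 lower, against 19.4% of all genes (9.82% higher and 9.54% lower), with medians of −0.14 for the members and −0.002 for all genes.

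The OE genotypes had shares nearer to those of all genes. In jumu OE, 40 of 199 members were called (20.1%), 12 higher and 28 lower, against 15.7% of all genes (7.99% higher and 7.68% lower). In CHES-1-like OE, 70 of 198 were called (35.4%), 31 higher and 39 lower, against 33.1% of all genes (16.7% higher and 16.5% lower). More members were called lower than higher in all 5 genotypes, with either scaling, but the size of the split depended on the scaling in the LOF genotypes. With library totals in place of TMM factors, the median log2 fold change of all genes stood at −0.18 in jumu LOF, −0.56 in CHES-1-like LOF and 0.34 in double LOF. Members called became 5 higher and 66 lower in jumu LOF, 14 higher and 129 lower in CHES-1-like LOF, 42 higher and 52 lower in double LOF, 10 higher and 25 lower in jumu OE, and 28 higher and 43 lower in CHES-1-like OE. All genes then had 919 higher and 2014 lower calls in jumu LOF, 266 and 6269 in CHES-1-like LOF, and 3678 and 825 in double LOF. They had 777 and 596 in jumu OE, and 1715 and 2161 in CHES-1-like OE. In CHES-1-like LOF 9.79% of called members were higher, against 4.07% of all called genes. In each other genotype the called members were higher less often than all called genes. Among the 149 members in the top 200 of every genotype, calls were 12 higher and 27 lower in jumu LOF, 21 and 38 in CHES-1-like LOF, 10 and 59 in double LOF, 9 and 18 in jumu OE, and 23 and 21 in CHES-1-like OE.

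Among the 170 with an entry, calls were 8 higher and 39 lower in jumu LOF, 4 and 51 in CHES-1-like LOF, 16 and 61 in double LOF, 11 and 26 in jumu OE, and 28 and 39 in CHES-1-like OE. Of all genes, 9.82% were called higher and 9.54% lower in jumu LOF, 6.24% and 9.18% in CHES-1-like LOF, and 11.9% and 12.8% in double LOF. The shares of all genes were 7.99% and 7.68% in jumu OE, and 16.7% and 16.5% in CHES-1-like OE. With library totals the double LOF counts of these 170 became 41 higher and 31 lower, so that their excess of lower calls there depended on the scaling. The 47 noncoding RNA genes that overlap another gene without sharing exons had 0 higher and 12 lower calls in jumu LOF, 0 and 17 in CHES-1-like LOF, and 1 and 29 in double LOF, with a median of −0.68 in double LOF. Lower calls outnumbered higher calls in the OE genotypes too, with 3 higher and 13 lower in jumu OE and 4 and 18 in CHES-1-like OE. In double LOF they had 3 higher and 18 lower calls with library totals. The 39 noncoding RNA genes that share exon sequence with another gene had 2 higher and 7 lower calls in jumu LOF, 1 and 12 in CHES-1-like LOF, 4 and 14 in double LOF, 2 and 2 in jumu OE, and 12 and 9 in CHES-1-like OE. The 30 with no overlap had 3 higher and 11 lower calls in jumu LOF, 0 and 8 in CHES-1-like LOF, 5 and 5 in double LOF, 3 and 7 in jumu OE, and 5 and 3 in CHES-1-like OE. The 35 pseudogenes had 2 higher and 7 lower calls in jumu LOF, 3 and 5 in CHES-1-like LOF, and 5 and 7 in double LOF, where library totals gave 14 and 4. They had 2 and 3 in jumu OE, and 5 and 6 in CHES-1-like OE. The plot of fold changes by class shows each member.

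**Figure D2:**
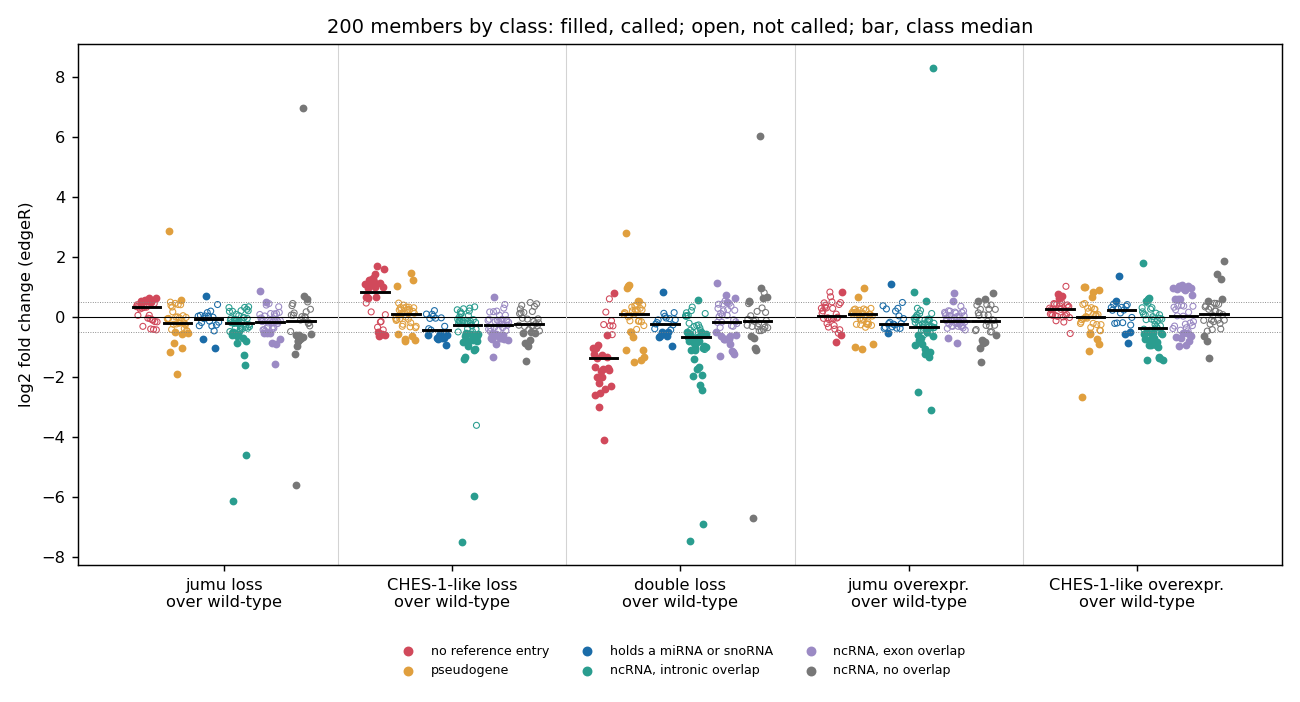
log2 fold change over wild-type (y axis, edgeR) of the 200 members in 5 genotypes (x axis), in 6 classes by colour; filled points were called, open points were not, and black bars are class medians. In double LOF the median of the 47 noncoding RNA members that overlap a gene without sharing exons is −0.68, and most members with no entry lie below 0.

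CR43807 was high in both genotypes with the jumu deficiency. It is a noncoding gene on 2L (10862194 to 10864697, minus strand) with no overlap and 188 bases from Stam. It held 11.0, 11.8, 10.3 and 10.4 CPM in jumu LOF and 4.99, 8.41, 4.70 and 4.98 CPM in double LOF, against 0.0850, 0.123, 0 and 0.0807 CPM in wild-type samples. The other 3 genotypes stayed at 0.269 CPM or below, so that every jumu-deficient sample lay above every other sample. The fitted log2 fold change was 6.96 in jumu LOF and 6.03 in double LOF. Its place among the members rests on these 2 genotypes, so the difference is a description. Stam, a component of endosomal sorting, was not called in any of the 5 genotypes (log2 fold change between 0.05 and 0.36).

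CR44506 was low in both genotypes with the jumu deficiency. This gene of 4982 bases on 2R (19692214 to 19697195, plus strand) lies 528 bases from Obp56a, an odorant-binding protein gene. It held 0.450, 0.509, 0.271 and 0.345 CPM in jumu LOF and 0.205, 0.286, 0.120 and 0.143 CPM in double LOF, against 19.5, 17.4, 16 and 17.7 CPM in wild-type samples. CHES-1-like LOF samples held 12.8 to 14.9 CPM, jumu OE samples 4.19 to 8.40 CPM and CHES-1-like OE samples 5.89 to 8.57 CPM. It fell in jumu LOF (−5.59 ± 0.13), double LOF (−6.71 ± 0.19), jumu OE (−1.52 ± 0.15) and CHES-1-like OE (−1.37 ± 0.12), and was not called in CHES-1-like LOF (−0.32 ± 0.08). Obp56a, at 3.55 CPM in wild-type, fell in jumu LOF (−1.33 ± 0.16), double LOF (−2.31 ± 0.25), jumu OE (−0.96 ± 0.16) and CHES-1-like OE (−0.97 ± 0.15), with −0.15 ± 0.16 in CHES-1-like LOF.

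CR32658 and CR32657 lie on the same strand inside Ten-a on X (12091264 to 12092272 and 12087211 to 12087695). Ten-a encodes a teneurin, a transmembrane protein of synapse matching. CR32658 held 0.204, 0.318, 0.301 and 0.325 CPM in jumu LOF and 0.0947, 0, 0 and 0.166 CPM in CHES-1-like LOF, against 20.3, 19.2, 21.9 and 19.3 CPM in wild-type samples. In double LOF it held at most 0.204 CPM. jumu OE samples lay between 2.24 and 4.62 CPM and CHES-1-like OE samples between 6.21 and 8.89 CPM, so that no sample of any other genotype reached the wild-type range. Its log2 fold change was −6.12 ± 0.13 in jumu LOF, −7.49 ± 0.19 in CHES-1-like LOF, −7.46 ± 0.20 in double LOF, −2.5 ± 0.14 in jumu OE and −1.44 ± 0.10 in CHES-1-like OE. CR32657 stood at −4.59 in jumu LOF, −5.98 in CHES-1-like LOF, −6.90 in double LOF, −3.09 in jumu OE and −1.37 in CHES-1-like OE. The place of CR32657 among the members rests largely on wild-type, so these values are a description. Ten-a itself was called in double LOF (−0.80) and CHES-1-like OE (−0.77) only, and stood at −0.31 in jumu LOF, −0.47 in CHES-1-like LOF and −0.22 in jumu OE.

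CR45226 was counted almost only in jumu OE. It lies opposite plum on 3R (26519580 to 26522279). It held 12.7, 12.2, 9.41 and 11.0 CPM in jumu OE samples, against 0.0425, 0.0410, 0.0584 and 0.0135 CPM in wild-type samples, where it had 7 counts over the 4 samples and at most 3 in one. Against a floor of 3 counts per library it was at least 142-fold higher in jumu OE. Its place among the members rests on jumu OE alone, so this difference is a description. Floors cover counting error only.

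CR18854 and CR45138 changed by smaller factors at higher levels. CR18854, annotated as a hairpin RNA, a precursor of small interfering RNAs, runs opposite IP3K1 on 2L (9787294 to 9790745) and shares exon sequence with it. It held 82.5, 78.3, 79.1 and 79.7 CPM in jumu LOF, against 45.4, 41.1, 44.7 and 44.7 CPM in wild-type samples. It rose in jumu LOF (0.88 ± 0.05), double LOF (1.15 ± 0.09) and CHES-1-like OE (0.95 ± 0.07), with CHES-1-like LOF at −0.41 ± 0.06 and jumu OE at 0.11 ± 0.07. IP3K1, which encodes an inositol trisphosphate kinase, fell in jumu LOF (−0.92), double LOF (−0.64) and jumu OE (−0.50), and was not called in CHES-1-like OE (−0.04). CR45138, on 2R (9868219 to 9869159), held 67.8, 85.6, 76.6 and 86.0 CPM in CHES-1-like OE, against 22.7, 22.8, 26.2 and 21.7 CPM in wild-type samples, a log2 fold change of 1.79 ± 0.09. It fell in jumu OE (−0.94 ± 0.11) and was not called in jumu LOF (−0.49), CHES-1-like LOF (−0.50) or double LOF (0.14).

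**Figure D3:**
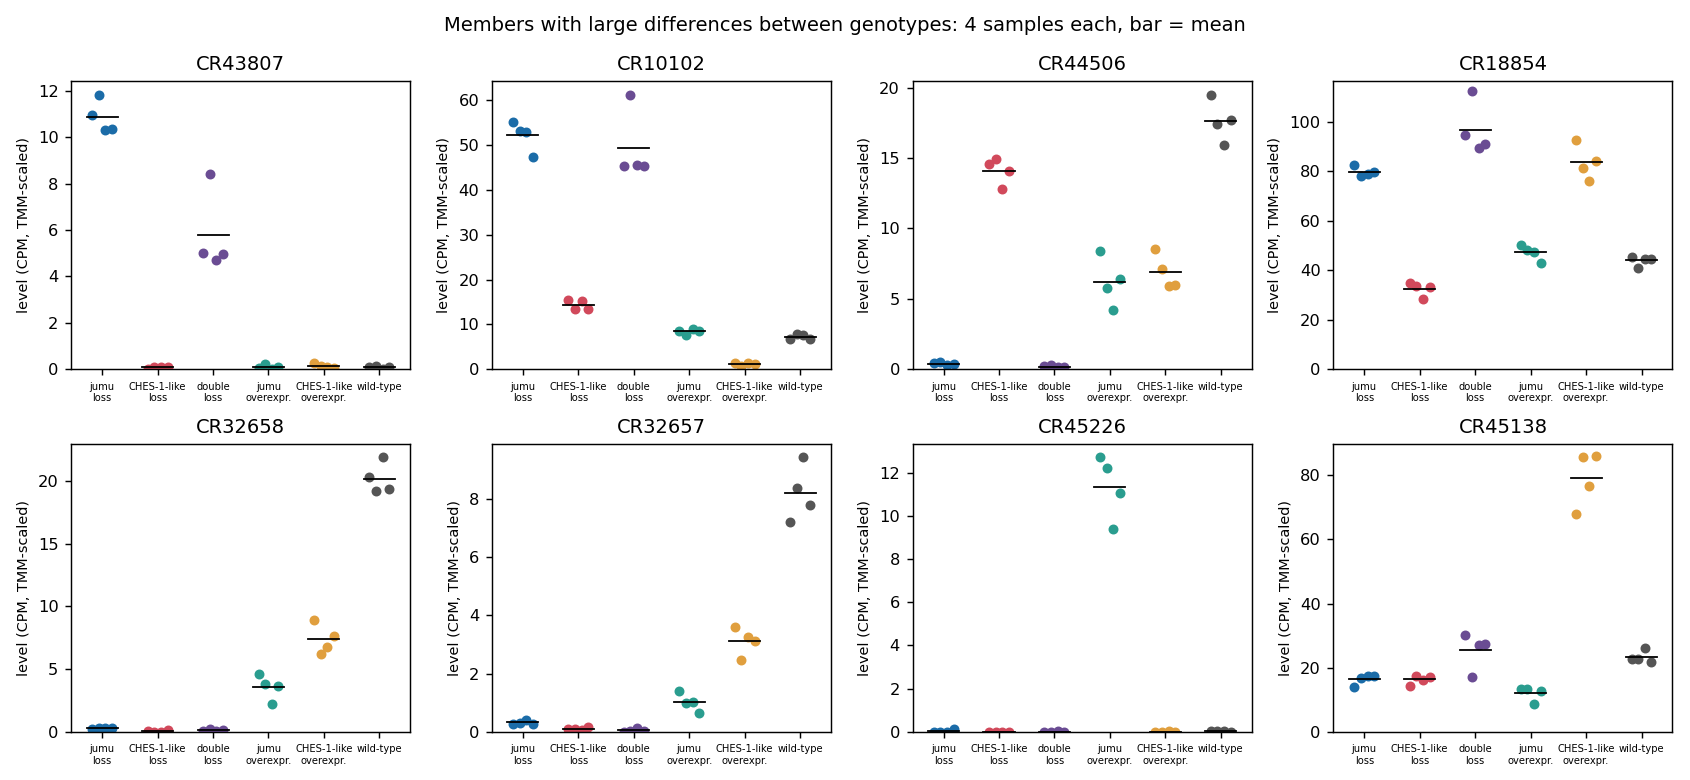
Level (CPM, TMM-scaled, linear y axes from 0) of 8 members in 6 genotypes (x axis); points are 4 samples per genotype and bars are means. CR43807 is above 4 CPM in jumu LOF and double LOF alone, CR45226 is above 9 CPM in jumu OE alone, and CR32658 and CR32657 are highest in wild-type.

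Further members changed in CHES-1-like LOF or CHES-1-like OE. In CHES-1-like LOF, CR43483, a pseudogene opposite Hsp27, a small heat shock protein gene, rose to 8.73, 5.35, 6.52 and 5.61 CPM, against 2.38, 2.13, 2.98 and 2.46 CPM in wild-type samples (1.47 ± 0.16). Hsp27 also rose there (0.70 ± 0.11), and in jumu LOF, where CR43483 was not called (0.04), Hsp27 rose by 0.80 ± 0.09. CR45247 (−1.48 ± 0.14), CR43264 (−1.39 ± 0.19) and CR46003 (−1.35 ± 0.13) fell in CHES-1-like LOF. CR46003, a gene of 21024 exon bases on 3L, held 2.77, 2.92, 3.90 and 3.01 CPM there, against 7.99, 7.51, 8.83 and 7.53 CPM in wild-type samples. CR45923, now called lncRNA:dntRL, rose in CHES-1-like OE (1.86 ± 0.20), with 5.98, 5.32, 4.16 and 4.01 CPM, against 1.73, 1.33, 1.23 and 0.995 CPM in wild-type samples. These wild-type values lie below the mean of the lowest member, 1.90 CPM. The place of CR45923 among the members thus rests on genotypes where it was higher, and its difference is a description.

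In the OE genotypes, CR43837 on X, 873 bases from the gap junction gene Inx2, rose in jumu OE (0.81 ± 0.18) and CHES-1-like OE (1.25 ± 0.20). It held 3.25, 3.42, 2.67 and 3.00 CPM in jumu OE and 5.82, 3.59, 3.52 and 4.11 CPM in CHES-1-like OE, against 2.05, 1.76, 1.11 and 1.86 CPM in wild-type samples, without overlap. Its wild-type level was close to that of the lowest member (1.90 CPM), so these differences are a description too. The pseudogene CR40354 rose in jumu OE (0.97 ± 0.12) and CHES-1-like OE (0.83 ± 0.11), with −0.03 in jumu LOF and 0.25 in CHES-1-like LOF. CR43751, on 2L near aop, which encodes a repressor of receptor tyrosine kinase signalling, rose in jumu LOF (0.69 ± 0.17), double LOF (0.97 ± 0.16) and CHES-1-like OE (1.42 ± 0.16). CR43604 lies inside dachs and rose in jumu OE (0.82 ± 0.13), with 70.8, 80.5, 56.4 and 73.6 CPM, against 52.5, 32.4, 37.1 and 37.9 CPM in wild-type samples. CR43661, opposite the muscle splicing factor gene mbl, fell in jumu OE (−1.23 ± 0.19), CHES-1-like LOF (−0.97 ± 0.16) and double LOF (−0.87 ± 0.16). CR46084, opposite the polarity gene scrib and the lowest member, fell in CHES-1-like OE (−1.45 ± 0.20), where scrib fell as well (−0.96). The fold change of CR46084 against wild-type was negative in every other genotype too. Its place among the members thus rests largely on wild-type, and the fall of CR46084 is a description.

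The hosts of miRNAs and snoRNAs are precursors, and a host's count need not follow its mature small RNA, which was not measured here. Of the 18 noncoding genes that hold a miRNA, 1 rose and 2 fell in jumu LOF, 0 rose and 9 fell in CHES-1-like LOF, 1 rose and 6 fell in double LOF, 1 rose and 1 fell in jumu OE, and 2 rose and 3 fell in CHES-1-like OE. Of all genes, 19.4%, 15.4%, 24.7%, 15.7% and 33.1% were called in these 5 genotypes, in this order, so that the share of hosts called lay above that of all genes in CHES-1-like LOF and double LOF and below it in the other 3. With library totals the double LOF counts became 1 and 1. CR45361, the host of mir-1, the muscle miRNA, held 18.3, 15.1, 15.1 and 14.6 CPM in jumu LOF, 15.1, 24.9, 13.4 and 13 CPM in double LOF, and 49.99, 36.7, 31.5 and 33.4 CPM in CHES-1-like OE, against 28.1, 25.5, 24.8 and 27.0 CPM in wild-type samples. It fell in jumu LOF (−0.73), double LOF (−0.67) and jumu OE (−0.54) and rose in CHES-1-like OE (0.53), with −0.44 in CHES-1-like LOF. The CHES-1-like OE call was lost without CHES-1-like OE replicate 1 (0.34) or wild-type replicate 3 (0.49), and the jumu OE call without jumu OE replicate 4 (−0.50).

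CR45920, the host of mir-316, was higher in 4 genotypes. It held 16.8, 16.1, 13.1 and 14.9 CPM in CHES-1-like OE and 13.8, 13.3, 12.6 and 11.9 CPM in jumu OE, against 7.0, 5.99, 4.5 and 6.07 CPM in wild-type samples. It rose by 1.35 ± 0.12 and 1.11 ± 0.11 in these and by 0.69 ± 0.10 in jumu LOF and 0.82 ± 0.16 in double LOF, with 0.21 ± 0.12 in CHES-1-like LOF. The lowest value in each of the 4 genotypes lay above the highest of wild-type. CR43836, which holds mir-31b, fell in jumu LOF (−1.02), CHES-1-like LOF (−0.69), double LOF (−0.98) and CHES-1-like OE (−0.87), with −0.38 in jumu OE. CR45916, the host of mir-9a, fell in CHES-1-like LOF (−0.55), double LOF (−0.51) and CHES-1-like OE (−0.56). These 3 calls were lost without wild-type replicate 1 (−0.49 in CHES-1-like LOF and −0.44 in double LOF) or CHES-1-like OE replicate 4 (−0.50), and in double LOF also without double LOF replicate 1 (−0.46), double LOF replicate 4 (−0.42) or wild-type replicate 4 (−0.50).

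Further hosts fell in CHES-1-like LOF. They were CR43650 with mir-8 (−0.61), CR45919 with the neuronal mir-124 (−0.70), CR46006 with mir-276a (−0.72), CR43314 with mir-bft (−0.73), and CR43459 with mir-277 and mir-34 (−0.93). CR45919 held 4.21, 4.09, 3.30 and 3.75 CPM there, against 7.30, 6.79, 5.38 and 5.72 CPM in wild-type samples, so that the groups did not overlap. CR42651 with mir-10 also fell there (−0.60), a call lost without CHES-1-like LOF replicate 3 (−0.54) or 4 (−0.48) or wild-type replicate 1 (−0.49) or 4 (−0.60). CR45388 with mir-315 fell in CHES-1-like LOF (−0.63) and double LOF (−0.63), the double LOF call lost without wild-type replicate 1 (−0.52) or 4 (−0.51). CR17025 with mir-252 fell in CHES-1-like OE (−0.51), a call lost without CHES-1-like OE replicate 3 (−0.47) or wild-type replicate 1 (−0.46) or 4 (−0.49). In double LOF, CR46194, which holds mir-281-1 and mir-281-2 inside Oda, fell (−0.65), and CR44206, the host of mir-184, fell (−0.51) but was not called without double LOF replicate 4 (−0.43) or wild-type replicate 4 (−0.49). CR33222, a pseudogene with snoRNA:Or-aca2, fell in jumu LOF (−1.02). CR43334, the host of bantam, a miRNA that promotes growth, was called in no genotype against wild-type, with values between −0.39 and 0.37. CR31044 with mir-279 and mir-996, CR45911 with mir-13a, mir-13b-1 and mir-2c, CR42491 with snoRNA:Psi18S-531, and CR43651 with mir-14 were not called in any of the 5 genotypes either.

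**Figure D4:**
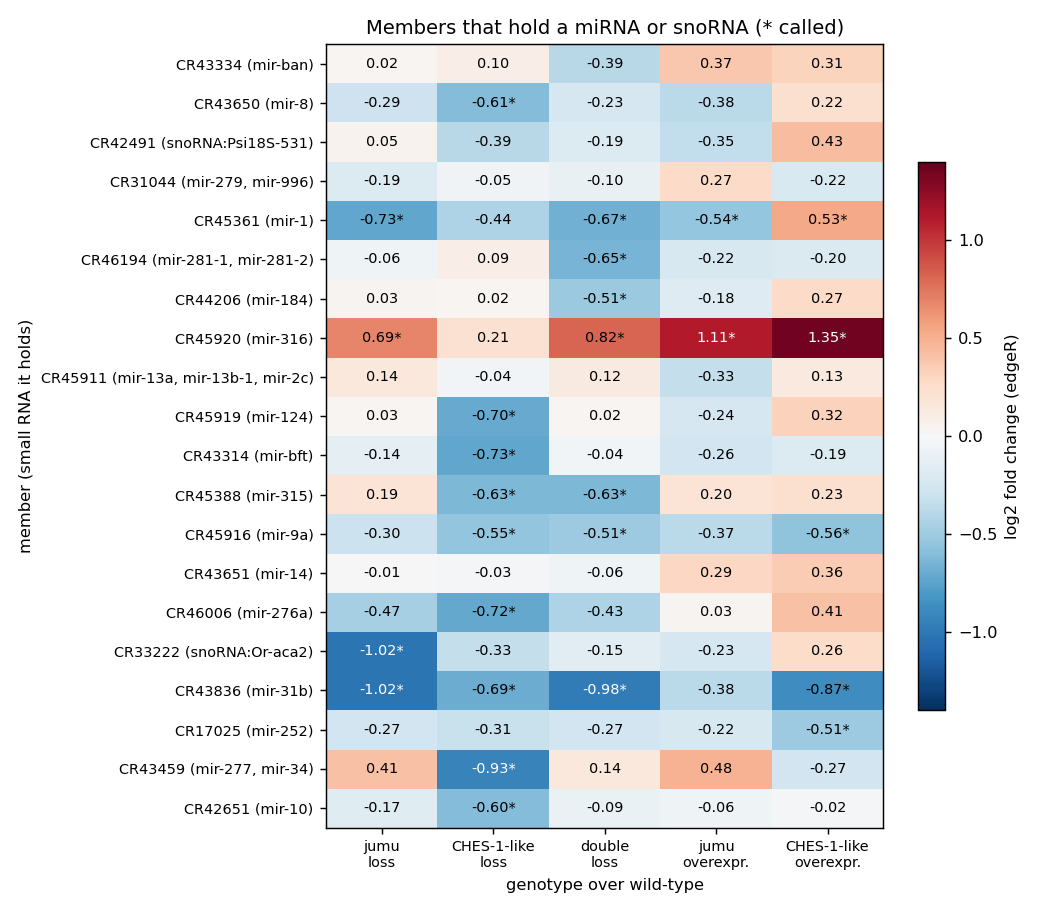
log2 fold change over wild-type (edgeR; colour scale and printed values, asterisk for called) of the 20 members that hold a miRNA or snoRNA (rows) in 5 genotypes (columns). The mir-316 host CR45920 is called higher in 4 columns, and most values in the CHES-1-like LOF column are below 0.

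Members that lie close together moved alike in places. Within 10 kb of each other lay 34 members in 13 runs. One run on 2L, between 20476711 and 20490282, holds the mir-1 host CR45361 with CR43234, CR45360 and CR45359, which were chosen after their values were seen. CR43234, CR45360 and CR45359 fell in jumu LOF (−0.86, −0.73 and −0.82), CHES-1-like LOF (−0.72, −0.97 and −0.89), double LOF (−0.75, −1.09 and −1.03) and jumu OE (−0.87, −0.84 and −0.87). In CHES-1-like OE CR43234 rose (0.89) to 8.08, 6.21, 8.75 and 8.61 CPM, against 4.17, 4.45, 4.97 and 4.02 CPM in wild-type samples, and CR45360 and CR45359 stood at 0.05 and −0.10. On 3L, the pseudogene CR34262 and the noncoding gene CR45757 lie less than 10 kb apart. CR34262 held 14.9, 15.5, 12.7 and 13.1 CPM in jumu LOF, against 32.6, 30.7, 33.4 and 30.8 CPM in wild-type samples, and fell in jumu LOF (−1.18), CHES-1-like LOF (−0.58), double LOF (−1.12) and jumu OE (−0.99). CR45757 also fell in jumu LOF (−1.22), CHES-1-like LOF (−0.54), double LOF (−0.64) and jumu OE (−1.05), and the CHES-1-like LOF call was lost without CHES-1-like LOF replicate 3 (−0.49). The coding gene CG7458, 1213 bases from CR34262, fell in jumu LOF (−0.71), CHES-1-like LOF (−0.57), double LOF (−0.89) and jumu OE (−0.78).

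Members that overlap a coding gene were set beside that gene. In double LOF, 87 members could be paired with an overlapping coding gene that was tested. Of these members 47 were called. The coding gene was called in the same direction for 15 of them, in the other direction for 1 and not at all for 31. Of all genes tested, 24.7% were called in double LOF, so most genes at large had no call either. Across the 87 pairs the fold changes of member and gene had a Pearson r of 0.42 and a Spearman rho of 0.45, given as a description, since paired features share reads and libraries. In CHES-1-like LOF, 30 paired members were called, and their coding gene was called in the same direction for 1, beside 15.4% of all genes. In jumu LOF 20 were called, with 0 coding genes in the same direction and 1 in the other, beside 19.4% of all genes. In jumu OE 18 were called, with 2 and 0, beside 15.7% of all genes. In CHES-1-like OE 40 were called, with 13 and 1, beside 33.1% of all genes, and rho over the pairs was 0.59.

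**Figure D5:**
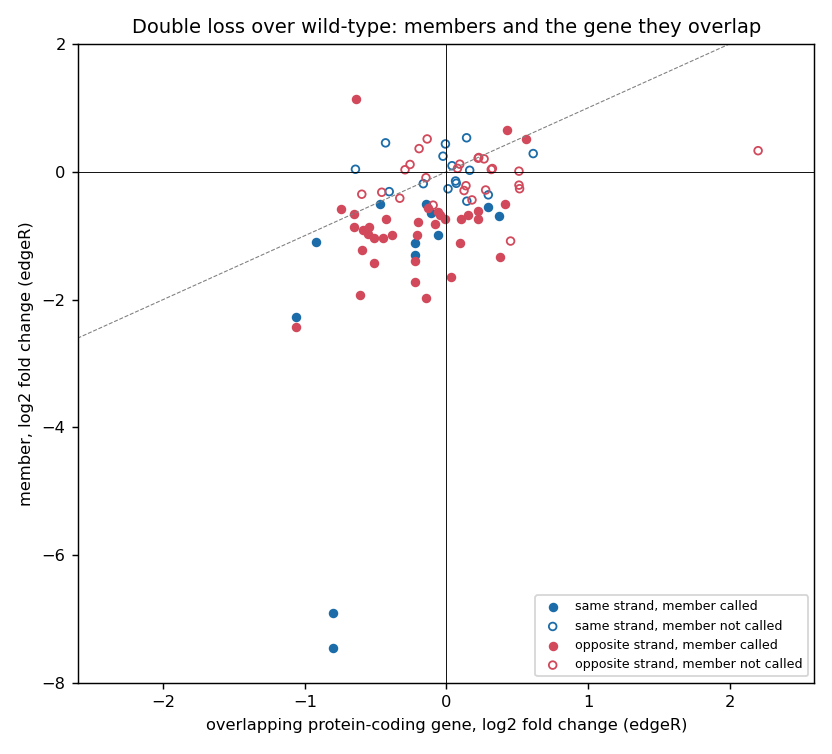
log2 fold change in double LOF over wild-type (edgeR) of a member (y axis) and of the coding gene it overlaps (x axis); colour gives the strand, filled points are called members, and the dashed line marks equal change. Of 47 called members, 31 overlap a gene that was not called, and many lie below the dashed line. Of all genes, 24.7% were called.

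Ten-m, a teneurin gene on 3L, contains 4 members, named here after their values were seen. CR45962, CR45963, CR45964 and CR45965 fell in double LOF, with log2 fold changes of −1.31, −1.73, −1.4 and −1.11, and in CHES-1-like LOF, with −0.70, −0.81, −0.64 and −0.83. CR45963 held 0.821, 1.23, 1.6 and 1.41 CPM in double LOF, against 4.59, 3.86, 3.80 and 4.99 CPM in wild-type samples. Ten-m was not called in any genotype, at 0.03 in jumu LOF, −0.13 in CHES-1-like LOF, −0.22 in double LOF, −0.19 in jumu OE and −0.16 in CHES-1-like OE. In jumu OE the 4 members fell, with −0.69, −1.06, −0.91 and −0.76, and the CR45965 call there was lost in 6 of 8 fits that left out 1 sample (−1.22 to −0.59). In CHES-1-like OE the 4 members also fell, with −0.67, −0.70, −0.78 and −0.50, the last just past the limit of 0.5. In jumu LOF CR45964 fell (−0.65), and CR45962 (−0.43), CR45963 (−0.35) and CR45965 (−0.08) were not called.

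Pxn, which encodes peroxidasin, an extracellular matrix enzyme made by hemocytes, contains CR45981 and CR45982, on opposite strands. CR45982 held 1.25, 1.85, 1.5 and 1.4 CPM in jumu LOF and 0.855, 0.531, 0.898 and 0.856 CPM in double LOF, against 4.56, 4.49, 3.86 and 4.59 CPM in wild-type samples. Both fell in jumu LOF (−1.27 and −1.59), double LOF (−2.27 and −2.43), jumu OE (−1.33 and −1.18) and CHES-1-like OE (−0.82 and −1.0), and not in CHES-1-like LOF (−0.30 and −0.09). Pxn fell in double LOF (−1.06), jumu OE (−0.65) and CHES-1-like OE (−0.70), and stood at −0.43 in jumu LOF. The 7 hemocyte markers, Pxn among them, summed to 699 to 749 CPM in double LOF and 916 to 949 CPM in jumu LOF, against 916 to 962 CPM in wild-type samples, and their part in the result was not tested.

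Other members inside genes fell in double LOF, and these too were chosen after their values were seen. CR46035 (log2 fold change −1.93) lies inside osa (−0.61), which encodes a subunit of the Brahma chromatin remodelling complex. CR46123 (−1.97) lies inside the myosin gene Myo81F (−0.14, not called), and CR45820 (−1.65) inside the kinase gene Eip63E (0.03, not called). CR45921 (−1.10) lies inside the nuclear receptor gene Eip75B (−0.92), and CR44017 (−1.03) inside the histone methyltransferase gene gpp (−0.51). In these 5 examples the member's fold change was the more negative of each pair. They were picked as members that fell, so this does not describe the pairs at large. CR44281 (−0.58), for one, fell less than ptc (−0.75), which it overlaps.

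The pseudogene CR10102 had graded levels. CR10102 on 2R (14360433 to 14361780) lies 136 bases from Arc1, whose product forms capsid-like particles that carry RNA between neurons and muscle. It held 55.3, 53.1, 53.1 and 47.3 CPM in jumu LOF and 15.5, 13.4, 15.1 and 13.4 CPM in CHES-1-like LOF, against 6.82, 7.79, 7.60 and 6.71 CPM in wild-type samples. Double LOF samples held 45.4 to 61.3 CPM, jumu OE samples 7.54 to 8.91 CPM and CHES-1-like OE samples 0.731 to 1.29 CPM. CHES-1-like OE was thus lowest, wild-type and jumu OE overlapped, and the jumu-deficient genotypes were highest and overlapped each other. The log2 fold changes of CR10102 were 2.88 ± 0.07 in jumu LOF, 1.02 ± 0.09 in CHES-1-like LOF, 2.79 ± 0.12 in double LOF, 0.24 ± 0.10 in jumu OE and −2.66 ± 0.16 in CHES-1-like OE. Those of Arc1 were 2.92 in jumu LOF, 0.99 in CHES-1-like LOF, 2.82 in double LOF, 0.19 in jumu OE and −2.83 in CHES-1-like OE. With library totals the CHES-1-like LOF value was 0.47 and not called. Whether reads are shared between CR10102 and Arc1 was not tested, so the value of CR10102 as separate from Arc1 is uncertain.

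CR31292, a pseudogene 1597 bases from the globin gene glob1, held 2.74, 3.37, 2.57 and 2.17 CPM in jumu LOF, against 10.1, 9.97, 10.2 and 9.5 CPM in wild-type samples. It fell in jumu LOF (−1.91 ± 0.11), CHES-1-like LOF (−0.75 ± 0.11), double LOF (−1.50 ± 0.16), jumu OE (−1.08 ± 0.11) and CHES-1-like OE (−0.53 ± 0.11), the last of these not called without CHES-1-like OE replicate 3 (−0.49) or 4 (−0.50). glob1 itself rose in jumu LOF (0.62 ± 0.05) and double LOF (1.10 ± 0.09). CR14033, a pseudogene inside the BMP receptor gene tkv and chosen after its values were seen, rose in CHES-1-like LOF (1.23 ± 0.13), with 6.46, 7.79, 8.32 and 6.63 CPM, against 3.02, 2.71, 3.16 and 3.40 CPM in wild-type samples. It fell in double LOF (−1.42 ± 0.22) to between 0.572 and 1.4 CPM. CR42722 and CR42723, pseudogenes in 1 run on 3L, rose in double LOF (1.02 and 1.07), where double LOF replicate 2 held 46.2 and 46.7 CPM. Without that sample the values were 0.56 and 0.52, still called. The pseudogenes CR32009, CR32010 and CR32011, a run on the fourth chromosome, were not called in any genotype, with CR32010 at 46.8 to 85.5 CPM over all samples.

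Overexpression was also set against loss of the same gene. In jumu OE against jumu LOF, 43 of 200 members were called, 27 higher and 16 lower, against 20.7% of all genes (11.2% higher and 9.54% lower). With library totals the split was 41 higher and 7 lower (85.4% higher), beside 2161 and 682 of all genes (76.0% higher). CR44506 (4.06) and CR32658 (3.64) were higher in jumu OE and CR10102 (−2.63) and CR18854 (−0.76) lower. CR43807 stood at −6.93 there, a description as above. In CHES-1-like OE against CHES-1-like LOF, 99 of 198 were called, 59 higher and 40 lower, against 40.7% of all genes (21% higher and 19.7% lower). Library totals gave 104 higher and 12 lower (89.7% higher), beside 5585 and 873 of all genes (86.5% higher). CR32658 (6.047), CR45138 (2.25) and CR45923 (2.03) were higher in CHES-1-like OE and CR10102 (−3.71) and CR14033 (−2.02) lower. The CR45923 value is a description, as above.

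The interaction asked whether the change in double LOF departed from the sum of the changes in the single LOF genotypes on the log2 scale. Of 199 members, 69 were called, 33 with a positive and 36 with a negative coefficient, against 12.2% of all genes (6% positive and 6.23% negative). With library totals, under which the median coefficient of all genes was 1.07, the split was 152 positive and 22 negative, so that the positive calls depended on the scaling. All genes then had 9584 positive and 170 negative calls. All 18 members of ranks 1 to 18 had a negative coefficient that was called with either scaling, with a median of −3.09. Those of CR40502, CR41607, CR40712 and CR41544 were −4.72 ± 0.33, −4.70 ± 0.24, −4.30 ± 0.25 and −3.77 ± 0.44. CR32658 had the largest positive coefficient, 6.19 ± 0.57. It stood at 0.325 CPM or below in every sample of the 3 LOF genotypes, so that double LOF could not fall to the sum of the single changes, and its coefficient does not show that the changes differ. Among miRNA hosts, CR45919 with mir-124 (0.70) and CR43650 with mir-8 (0.68) had positive coefficients, and CR46194 (−0.69) had a negative one that became 0.35 with library totals. A test of any difference among the 6 genotypes called 176 of 200 members, against 78.8% of all genes.

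The 24 members without a call among the 6 genotypes included the miRNA hosts CR43651, CR17025 and CR42651 and the pseudogenes CR32009 and CR32010. A missing call does not show equal levels. None of the 170 members with an entry lay within 100 kb of jumu or CHES-1-like. The nearest were CR43459, 248826 bases from jumu, and CR11386, 187865 bases from CHES-1-like.

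For comparison, 30 noncoding RNAs with names of their own were listed, of which 24 were in the table and 21 were tested. Of these 21, 0 rose and 3 fell in jumu LOF, 0 and 4 in CHES-1-like LOF, 0 and 3 in double LOF, 1 and 5 in jumu OE, and 3 and 0 in CHES-1-like OE. Beside the 19.4%, 15.4%, 24.7%, 15.7% and 33.1% of all genes called in these 5 genotypes, in this order, their share was lower in jumu LOF, double LOF and CHES-1-like OE. bxd, an RNA of the bithorax complex, fell in jumu LOF (−1.04), CHES-1-like LOF (−1.20), double LOF (−0.96) and jumu OE (−0.79), with 0.20 in CHES-1-like OE. roX1, a dosage compensation RNA, was not called in any of the 5 genotypes.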

How the data were processed

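Mesodermal GFP-positive cells of 6 genotypes, 4 samples each, were sequenced as stranded total RNA. The authors aligned the reads with TopHat2 to Drosophila Release 6 and deposited raw counts per gene; the submitters' processing notes name SAMtools and HTSeq, and the strand setting and versions are not given in the sources used here. Counts were fitted per comparison with edgeR 4.0.16 (R 4.3.3; TMM factors, quasi-likelihood test, Benjamini-Hochberg adjustment over all genes), with the interaction fitted on 16 samples and DESeq2 1.42.0 as an alternative. SE is the absolute log2 fold change over the square root of F. Scripts were tested on simulated data. Named members follow a rule: the 10 highest; the 5 largest changes each way per genotype against wild-type, with groups apart and 10 counts in every sample of 1 group; the 10 largest F statistics; the 5 largest interaction coefficients; rank edges; and small RNA hosts. The members and lists were chosen with earlier results of these data known. The study's methods describe the 4 samples of the wild-type cross and of the jumu LOF cross as biological replicates.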

Additional observations from a re-analysis of the deposited data

Results flagged for a closer look

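In 54 results a sample stood far from the other 3 of its genotype, or the interaction test called an effect as different between genotypes. Chance places about 1 in 20 groups past the limit used for a single sample (Dixon's critical value for 4 samples). Of 396 groups of named members, 45 (11.4%) passed it, 17 of them through double LOF replicate 2 and 12 through CHES-1-like OE replicate 1.

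Double LOF replicate 2 stood apart in the share of counts in members with no annotation entry (11.7%) and in annotated members (0.320%). In CPM it also stood apart for CR40639 (4890), CR40641 (583), CR10102 (61.3), CR43650 (53.4), CR42723 (46.7), CR43334 (46.3), CR42722 (46.2), CR31044 (40.0), CR45920 (14.1), CR45757 (9.03), CR43314 (8.99), CR43807 (8.41), CR43483 (7.72), CR43651 (5.51), CR46006 (5.19), CR43836 (1.67) and CR45982 (0.531).

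CHES-1-like OE replicate 1 stood apart in the share of counts in members with no entry (31.1%) and in the levels of CR41583 (127096 CPM), CR40668 (99646), CR40766 (20895), CR40679 (17105), CR41535 (16674), CR40639 (15886), CR41590 (12411), CR41621 (4592), CR43334 (76.8), CR43650 (74.1), CR31292 (8.46) and CR45982 (1.56).

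The other samples were apart for few members. They were jumu LOF replicate 4 for CR40639 (14336 CPM), CR40502 (1899) and CR45226 (0.142), jumu LOF replicate 1 for CR45361 (18.3) and CR45981 (1.39), and jumu LOF replicate 2 for CR43252 (0.955). CHES-1-like LOF replicate 1 was apart for CR45916 (4.40) and CR42651 (2.08), jumu OE replicate 1 for CR43483 (3.65) and CR46201 (4.26), and jumu OE replicate 3 for CR45138 (8.76) and CR43314 (4.38). Among wild-type samples, replicate 1 was apart for CR40668 (63489), replicate 2 for CR18854 (41.1) and CR46006 (3.40), and replicate 3 for CR45982 (3.86).

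The interaction test in edgeR, with TMM factors, called 69 members. In these the fitted double LOF change departed from the sum of the single LOF changes on the log2 scale. The positive calls depended on the scaling. Among the coefficients of largest size were −4.72 for CR40502, −4.70 for CR41607, −4.30 for CR40712 and −3.77 for CR41544. CR32658 was also called, at 6.19, but stood near 0 in all 3 LOF genotypes, so that a positive coefficient follows from the levels and shows no difference of effects.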

How the results depend on the processing

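With library totals in place of TMM factors, 143 members (14 higher, 129 lower) were called in CHES-1-like LOF, against 78, and 174 (152 positive, 22 negative) in the interaction, against 69. Calls among all 12233 genes tested rose as well. They went from 1886 to 6535 (266 higher, 6269 lower) in CHES-1-like LOF. In the interaction they went from 1496 to 9754 (9584 positive, 170 negative). The interaction coefficients of CR44506 (0.22), CR45982 (0.26), CR43334 (0.52), CR46194 (0.35) and CR44206 (0.46) changed sign. Leaving out 1 sample at a time gave 49 to 57 calls in jumu LOF, 75 to 82 in CHES-1-like LOF, 87 to 102 in double LOF, 36 to 51 in jumu OE, 66 to 75 in CHES-1-like OE, 40 to 55 in jumu OE against jumu LOF, 90 to 100 in CHES-1-like OE against CHES-1-like LOF, 62 to 86 in the interaction and 169 to 181 among the 6 genotypes. Of 185 calls of named members, 5 were lost with DESeq2, 24 were lost and 5 turned with library totals, and 30 were lost in at least 1 fit with a sample left out. Same-numbered samples stand together in the numbering of the count columns, and no shared batch is stated for them. The correlations of their deviations lay between −0.0967 and 0.237 and passed 0.1 for every pair in no comparison, and at most 3 of 4 numbers correlated best with their own. For number 1 they passed 0.1 in every comparison (0.122 to 0.237) but double LOF against wild-type (−0.041). Beyond number 1, only number 4 in CHES-1-like OE against CHES-1-like LOF passed it (0.169). The replicate block gave 57 calls in jumu LOF, 79 in CHES-1-like LOF, 100 in double LOF, 46 in jumu OE, 70 in CHES-1-like OE, 46 and 102 in OE against LOF, 72 in the interaction and 184 among the 6 genotypes, and 2 of the 185 calls were lost. The cause of these changes was not tested. Depth limits members near 2 CPM, where the shallowest sample holds few counts.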
